A study of Homo sapiens with 4 samples.

Results

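CCN proteins are small secreted proteins of the extracellular matrix that act as signals to cells and do little to build the matrix itself. The 7 genes described here are CCN1 to CCN6 (older symbols CYR61, CTGF, NOV, WISP1, WISP2 and WISP3) and ANKRD1, chosen by name, and they were matched by Ensembl identifier to 7 of the 57820 genes that the count files list. RNA was sequenced in bulk from A549, a human cell line derived from a lung adenocarcinoma. The line named TD received 2 ng/ml of TGF-β, transforming growth factor beta, once in 3 days, and its cells are labelled as mesenchymal-like. They were set against the parental A549 line, labelled as epithelial. Each group has 2 libraries, and both lines grew in the same medium with 10% serum and gentamycin. The sources used here do not give how long TD cells had been on TGF-β, whether they descend from 1 clone or whether parental cells received a vehicle, so the cytokine and the separate culture of the TD line cannot be told apart.

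CCN proteins share a chain of modules, each named after a protein in which it also occurs: an insulin-like growth factor binding module, a von Willebrand factor type C module, a thrombospondin module and a C-terminal cysteine knot, which CCN5 lacks. They bind integrins and heparan sulfate proteoglycans. CCN1 and CCN2 are immediate-early genes that serum, mechanical tension and TGF-β are known to induce, and both are classical targets of the coactivators YAP and TAZ, which reach DNA through TEAD transcription factors. ANKRD1 encodes an ankyrin repeat protein of heart and skeletal muscle that is found in the sarcomere and in the nucleus, and its RNA is often measured beside CCN1 and CCN2 as a readout of YAP activity.

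Promoter sequence was at hand for some of these genes, and not for CCN1 or CCN5. RefSeq (build GRCh38.p14) supplied windows for 3 of the 7 genes, CCN2, ANKRD1 and CCN6, and the 250 bases before the start are printed 5′ to 3′ on the strand of each gene. They are shown so that the promoter of CCN2, the member with the largest change, can be read beside that of ANKRD1, which did not pass the test, and that of CCN6, which had no reads. Capitals mark the letters GGAATG, the core to which TEAD factors bind, searched on both strands. CCN2 lies at chr6:131951373-131951622 on the minus strand, ANKRD1 at chr10:90921088-90921337 on the minus strand and CCN6 at chr6:112053854-112054103 on the plus strand.
CCN2: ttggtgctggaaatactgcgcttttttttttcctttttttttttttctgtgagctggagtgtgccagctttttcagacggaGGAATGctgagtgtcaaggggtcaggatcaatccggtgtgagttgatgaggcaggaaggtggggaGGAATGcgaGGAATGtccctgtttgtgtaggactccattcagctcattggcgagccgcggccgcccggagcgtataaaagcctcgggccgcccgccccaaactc
ANKRD1: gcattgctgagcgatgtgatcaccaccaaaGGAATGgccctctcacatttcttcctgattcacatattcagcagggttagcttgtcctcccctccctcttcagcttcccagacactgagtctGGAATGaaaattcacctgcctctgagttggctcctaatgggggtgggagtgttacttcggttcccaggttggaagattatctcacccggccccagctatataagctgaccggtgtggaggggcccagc
CCN6: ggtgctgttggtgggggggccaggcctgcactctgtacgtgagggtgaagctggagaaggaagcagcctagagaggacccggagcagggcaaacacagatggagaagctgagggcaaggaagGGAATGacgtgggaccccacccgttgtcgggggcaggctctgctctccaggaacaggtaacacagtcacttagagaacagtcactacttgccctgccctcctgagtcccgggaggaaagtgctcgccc

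CCN2 held 3 matches to GGAATG, which began 169, 104 and 95 bases before the start. ANKRD1 held 2, beginning 220 and 128 bases before the start, and CCN6 held 1 at 128. Of 35116 RefSeq windows of the same length, 11.9% held at least 1 match and 0.0826% held at least 3. Beside them, CCN2 had 1 match to CAGAC, the letters of the SMAD-binding CAGA box, and a TATAAA match that began 32 bases before the start. ANKRD1 had 2 matches to CAGAC, of which the one on the opposite strand shares a base with a GGAATG match, and 1 match to TGANTCA, the AP-1 element. CCN6 had none of these. CAGAC was found in 38.0% of all windows, TATAAA in 10.7% and TGANTCA in 6.57%. No window of the 3 genes held a CArG box, the element of serum response factor, which 1.16% of all windows held. A match is a run of letters in this window and no measurement of binding. Whether the number of matches goes with the change of a gene was not tested.

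**Figure D1:**
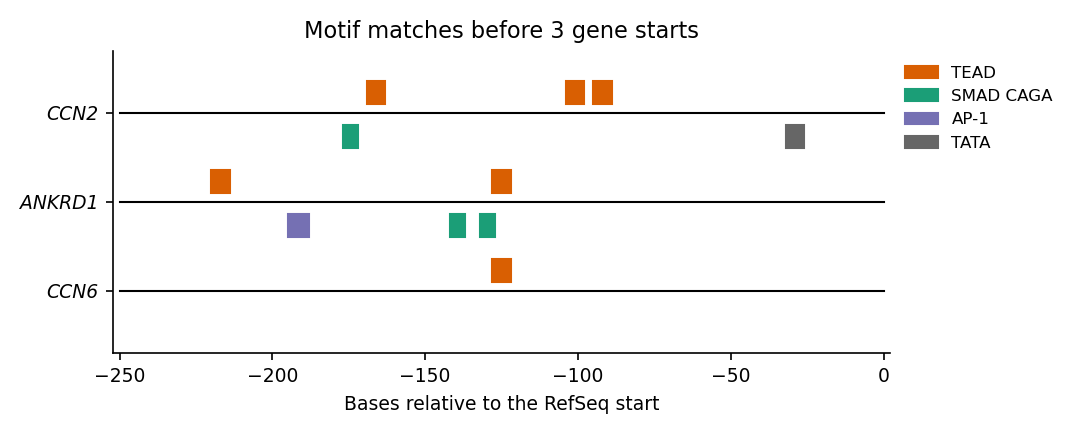
Matches to 4 motifs in the 250 bases before the RefSeq start of CCN2, ANKRD1 and CCN6; the horizontal axis gives bases relative to the start, with TEAD matches drawn above each line and the other motifs below it. CCN2 has 3 TEAD core matches, ANKRD1 2 and CCN6 1.

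The family did not move as a block. CCN2 was 48.9-fold and CCN1 5.18-fold higher in TD, CCN5 was 9.77-fold lower, CCN3 and ANKRD1 did not pass the test, and CCN4 and CCN6 had too few reads to be tested. Of the 7 genes, 5 passed the filter on low counts, and of these 2 rose and 1 fell at an adjusted p below 0.05 in edgeR's quasi-likelihood test. Among all 17785 tested genes, edgeR called 43.0%, with 21.6% higher in TD and 21.4% lower, so a call by itself is common here and the sizes are what set the members apart from each other. Ordered by signed log2 change from the largest fall to the largest rise, CCN2 lay above 99.0% and CCN1 above 95.7% of all tested genes. CCN5 lay above 4.10% of them, toward the end of the falls. The background depended on the libraries: 2114 genes were higher and 2236 lower without A549 replicate 1, 2241 and 2251 without A549 replicate 2, and 5329 and 6140 without TD replicate 1, against 3833 higher and 3809 lower with all 4. When pseudogenes were left out as well, 4028 were higher and 4240 lower without A549 replicate 1, and 3918 and 4063 without A549 replicate 2. The labels do not tie the replicates to separate cultures, so p-values measure only how these libraries vary, and that spread may be technical. In bulk RNA, fewer cells that express a gene and less of its RNA per cell cannot be told apart.

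**Figure D2:**
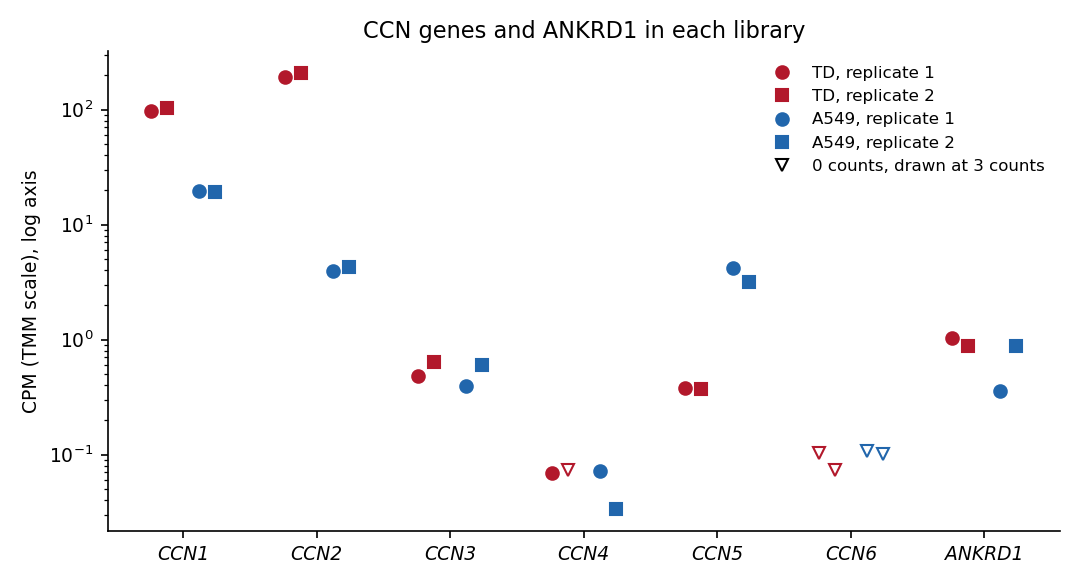
Level of each of the 7 genes in every library, in CPM on the TMM scale on a log axis, with TD libraries left of A549 libraries for each gene. CCN1 and CCN2 are higher in both TD libraries, CCN5 is lower in both, and open triangles stand for libraries with 0 counts, drawn at the level of 3 counts.

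Gene counts per library ranged from 26729278 to 44133836, and levels are given as CPM, counts scaled to library size with TMM factors. The labelled state was checked on marker genes. The epithelial keratins KRT8 and KRT18 were abundant in both groups, at 1356 and 540.0 CPM in TD and 9462 and 5915 CPM in A549, while the adhesion gene EPCAM had 3 and 8 counts in TD against 4114 and 4546 in A549. The epithelial marker KRT19 had 0 and 3 counts in TD and 33 and 30 in A549, and CDH1 had means of 2.95 and 190 CPM. The mesenchymal markers had higher means in TD than in A549: VIM 1657 and 368 CPM, CDH2 187 and 0.485 CPM, and FN1 611 and 64.6 CPM. Of 5 alveolar markers, SFTPA1 had 0 counts in every library, SFTPC, SFTPB and NKX2-1 had at most 6, and ABCA3 was the only abundant one. The 3 fibroblast markers had at most 7 counts in any library, summing to 0.276 to 0.320 CPM in TD and 0.169 to 0.216 CPM in A549, and the 2 endothelial markers measured, CDH5 and VWF, had at most 3. The 3 immune markers summed to 1.75 to 2.27 CPM in TD and 2.22 to 2.62 CPM in A549, mostly from CD68. These fibroblast and endothelial markers were near 0 in all libraries. PECAM1, a further endothelial marker, matched no gene in the counts. Whether other cells added to the RNA was not tested.

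CCN2 (ENSG00000118523 on chromosome 6), a matricellular growth factor known as a mediator of fibrosis, had 5550 and 8545 counts in the TD libraries, against 110 and 126 in the A549 libraries. On the CPM scale these were 191 and 210.1 CPM in TD and 3.95 and 4.25 CPM in A549. The groups did not overlap, and the lowest TD library was far above both A549 libraries. The log2 change was 5.61 (SE 0.11, 95% interval 5.33 to 5.89, adjusted p = 3.08e-05 by edgeR). An antisense gene that shares exon sequence with CCN2, AL133346.1, had 5 and 5 counts in TD and 1 and 0 in A549, few beside those of CCN2. Since the strand setting of the counting is not given, reads in the shared sequence may have been left uncounted for both genes.

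CCN1 (ENSG00000142871 on chromosome 1), an integrin ligand that promotes adhesion and migration and is known for angiogenic activity, had 2830 and 4201 counts in TD libraries and 542 and 573 in A549 libraries. Its levels were 97.5 and 103 CPM in TD, against 19.5 and 19.3 CPM in A549. Both TD libraries were higher than both A549 libraries, and the log2 change was 2.37 (SE 0.08, 95% interval 2.17 to 2.57, adjusted p = 6.49e-05 by edgeR). The intervals of CCN1 and CCN2 did not overlap, so the fold of CCN2 was the larger one in these libraries. No other annotated gene overlaps CCN1.

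CCN5 (ENSG00000064205 on chromosome 20) fell. It encodes the member without the C-terminal knot, known in rat smooth muscle cells as an inhibitor of growth. Its counts were 11 and 15 in TD libraries and 117 and 94 in A549 libraries, which gave 0.379 and 0.369 CPM in TD against 4.20 and 3.17 CPM in A549. The groups did not overlap, and the log2 change was -3.29 (SE 0.29, 95% interval -4.03 to -2.54, adjusted p = 0.0011 by edgeR). CCN5 did not pass a filter of 5 CPM in 2 libraries and so gave no test there. KCNK15-AS1, an antisense gene that overlaps CCN5 in introns, had 10 and 14 counts in TD and 25 and 23 in A549 (adjusted p = 0.0448 by edgeR), and since the sources used here give no strand setting for the counting, reads of the pair are uncertain where the genes overlap.

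CCN3, a member known to restrain growth in several cell types, was scarce in both lines. It had 14 and 26 counts in TD and 11 and 18 in A549, or 0.482 and 0.639 CPM against 0.395 and 0.607 CPM. The groups overlapped. The log2 change was 0.17 (95% interval -0.95 to 1.29, adjusted p = 0.783 by edgeR), an interval that reaches from a near 2-fold fall to more than a 2-fold rise. CCN4, a WNT-responsive member, had 2 and 0 counts in TD and 2 and 1 in A549. CCN6, a member whose mutation causes a skeletal dysplasia, had 0 counts in all 4 libraries. The exons of CCN6 overlap those of TUBE1 on the opposite strand, which had 89 and 139 counts in TD and 149 and 147 in A549, and reads that fall in both genes can be left uncounted. A count of 0 allows up to 3 counts, which is 0.0738 to 0.103 CPM in TD libraries and 0.101 to 0.108 CPM in A549 libraries, so differences of CCN4 or CCN6 were not detectable at this depth. These limits cover counting error only.

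ANKRD1 (ENSG00000148677 on chromosome 10) did not follow CCN1 and CCN2. It had 30 and 36 counts in TD libraries and 10 and 26 in A549 libraries, which gave 1.03 and 0.885 CPM in TD and 0.359 and 0.876 CPM in A549. The TD libraries were both higher, but the lower TD library and the higher A549 library were nearly equal. The log2 change was 0.62 (SE 0.50, 95% interval -0.68 to 1.93, adjusted p = 0.38 by edgeR). The upper end of this interval lies below the lower ends for CCN1 and CCN2. The estimate depended on which A549 library was kept: with A549 replicate 1 left out the log2 change was 0.09 (adjusted p = 0.901), and with A549 replicate 2 left out it was 1.39 (adjusted p = 0.164 by edgeR). A call appeared in 1 alternative, a fit without pseudogenes and without A549 replicate 2 (log2 change 1.37, adjusted p = 0.0489 by edgeR), a setting added after seeing the data.

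The other muscle ankyrin repeat genes are paralogs of ANKRD1 that also bind titin. ANKRD2 fell, with 0.379 and 0.467 CPM in TD libraries and 3.70 and 3.71 CPM in A549 libraries (log2 change -3.11, SE 0.26, adjusted p = 0.000935 by edgeR). ANKRD23 had 0.345 and 0.197 CPM in TD and 0.575 and 0.809 CPM in A549 and was not called (log2 change -1.37, 95% interval -2.65 to -0.08, adjusted p = 0.0845 by edgeR). Of their sarcomeric partners, TTN, the giant protein titin, had 13.8 ± 0.479 CPM in TD and 12.5 ± 0.119 CPM in A549 (SD, n = 2), with adjusted p = 0.27 by edgeR, and MYPN, myopalladin, had 0.332 ± 0.0176 CPM in TD and 0.347 ± 0.0335 CPM in A549 (SD, n = 2), with adjusted p = 0.921 by edgeR. Neither was called.

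The order of the family changed between the lines. Levels of different genes were compared as CPM per kilobase of annotated exon (GENCODE 29), since a longer transcript collects more reads. In TD the order was CCN2 at 85.8 ± 5.70, CCN1 at 40.9 ± 1.67, ANKRD1 at 0.485 ± 0.0531, CCN3 at 0.210 ± 0.0415 and CCN5 at 0.0751 ± 0.00145 CPM per kilobase (SD, n = 2), and no neighbours in this order overlapped. In A549 the order was CCN1 at 7.90 ± 0.0458, CCN2 at 1.75 ± 0.0892, CCN5 at 0.740 ± 0.147, ANKRD1 at 0.312 ± 0.185 and CCN3 at 0.187 ± 0.0560 CPM per kilobase (SD, n = 2). ANKRD1 and CCN3 overlapped in A549, and the other neighbours did not. Without division by length, CCN5 (4.20 and 3.17 CPM) and CCN2 (3.95 and 4.25 CPM) did overlap in A549. All annotated exon bases were counted, 4.98 kilobases for CCN5 and 2.34 for CCN2. The place of CCN5 in A549, and its share given below, thus depend on the length used. CCN4 stood at 0.0133 and 0 CPM per kilobase in TD and 0.0138 and 0.00649 in A549, at or below the limit of detection.

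CCN1 and CCN2 changed places. Per kilobase, CCN1 stood to CCN2 as 0.486 and 0.468 to 1 in the TD libraries, against 4.69 and 4.33 to 1 in the A549 libraries. The ratios of raw counts were 0.510 and 0.492 in TD and 4.93 and 4.55 in A549. CCN2 thus made up 67.2% and 67.9% of the summed CCN level in TD, against 15.9% and 17.2% in A549. CCN1 made up 32.6% and 31.8% in TD, against 74.6% and 74.6% in A549, and CCN5 made up 0.0625% and 0.0560% in TD, against 7.94% and 6.03% in A549. The level summed over CCN1 to CCN6 was 127 ± 7.40 CPM per kilobase in TD and 10.6 ± 0.0528 in A549 (SD, n = 2), 12.0 times as high in TD. With 2 libraries a group, an exact permutation test cannot reach a p below 0.05, and none is given for these ratios.

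**Figure D3:**
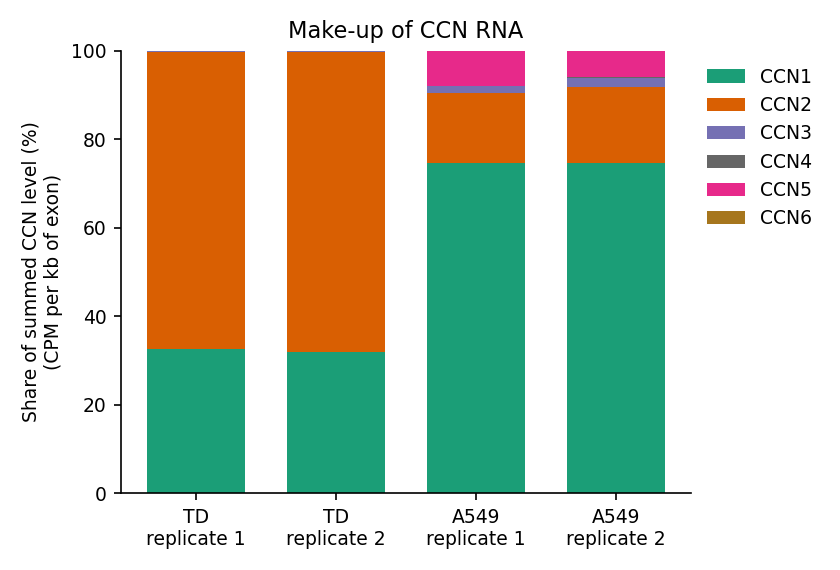
Share of each CCN gene in the summed CCN level of every library, in percent of CPM per kilobase of exon. CCN2 fills 67.2% and 67.9% of the TD bars, while CCN1 fills 74.6% of each A549 bar, where CCN5 is also visible.

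RNA of the YAP, TAZ, TEAD, SMAD3 and SRF genes changed less than that of CCN1 and CCN2. The activity of these factors was not measured, and FOS, of the AP-1 factors, is given with the serum response genes below. YAP1, the YAP coactivator, had 112 and 119 CPM in TD and 102 and 105 CPM in A549 (log2 change 0.16, 95% interval -0.04 to 0.35, adjusted p = 0.163 by edgeR). WWTR1, which encodes TAZ, rose, with 123 and 139 CPM in TD against 76.5 and 79.9 CPM in A549 (log2 change 0.74, SE 0.09, adjusted p = 0.00319 by edgeR). Among the TEAD genes, TEAD1 rose (371 ± 8.37 CPM in TD and 267 ± 12.5 CPM in A549; SD, n = 2) and TEAD3 fell (4.83 ± 0.289 CPM in TD and 10.3 ± 0.120 CPM in A549; SD, n = 2). TEAD2 and TEAD4 had log2 changes of 0.07 and -0.18 and were not called (adjusted p = 0.518 and 0.173 by edgeR). SMAD3, the TGF-β signal transducer, fell to 119 ± 5.67 CPM in TD, against 186 ± 6.57 CPM in A549 (SD, n = 2). SRF, serum response factor, rose to 52.2 ± 6.77 CPM in TD, against 30.4 ± 3.34 CPM in A549 (SD, n = 2). Leaving out A549 replicate 1 ended the call of TEAD1 (adjusted p = 0.0608 by edgeR), and leaving out A549 replicate 2 that of SRF (adjusted p = 0.0543 by edgeR).

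**Figure D4:**
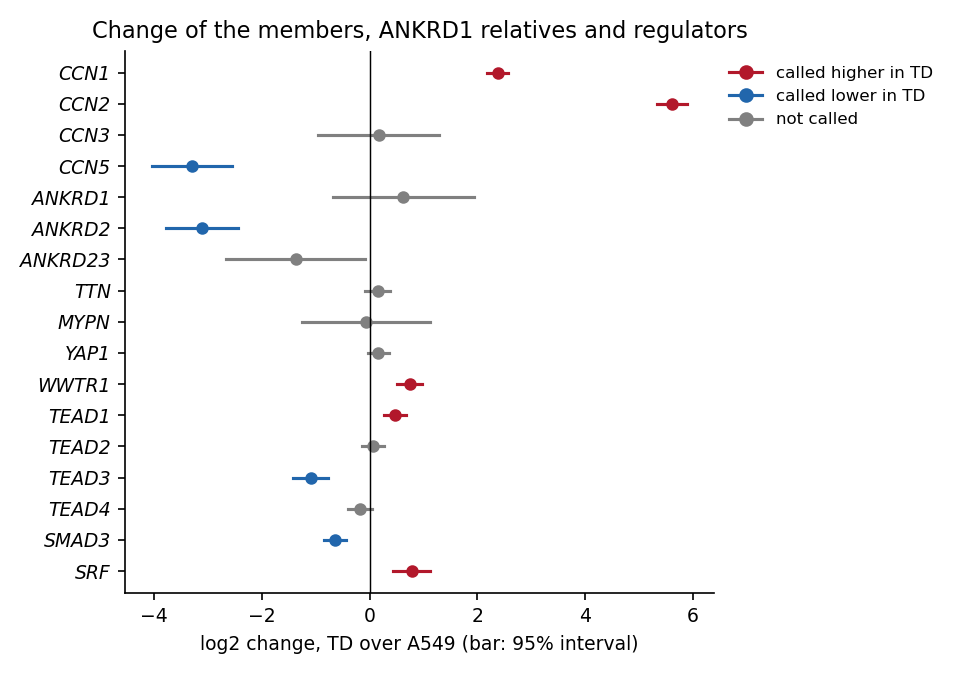
Log2 change of TD over A549 for the 5 tested members, the ANKRD1 relatives and partners, and the YAP, TEAD, SMAD and SRF genes; points are edgeR estimates and bars are 95% intervals. CCN2 at 5.61 and CCN1 at 2.37 lie furthest to the right, CCN5 at -3.29 and ANKRD2 at -3.11 furthest to the left, and the bar of ANKRD1 crosses 0.

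CCN1, CCN2 and ANKRD1 belong to a list of 30 genes known as targets of YAP and TEAD, which went both ways. This list and those below were chosen with earlier results of these data known, so their shares are descriptions only. Of the 30, all tested, 16 rose, 9 fell and 5 were not called. That is 53.3% higher and 30.0% lower, against 21.6% and 21.4% of all tested genes, and the median log2 change was 0.59, against -0.04 over all tested genes. CCN2 had the second largest rise of the list. The largest was that of CCDC80, a secreted matrix protein, at 1173 and 1145 CPM in TD and 16.5 and 15.0 CPM in A549 (log2 change 6.20, SE 0.11, adjusted p = 3.08e-05 by edgeR). RBMS3, an RNA-binding protein, followed with 6.65 and 7.16 CPM in TD and 0.251 and 0.270 CPM in A549. At the other end, the membrane repair gene MYOF had 104 and 107 CPM in TD and 465 and 485 CPM in A549. ARHGAP29, a GTPase-activating protein, had 12.2 and 11.3 CPM in TD and 46.1 and 50.1 CPM in A549. EDN1, the vasoactive peptide endothelin, had 15.0 and 17.6 CPM in TD and 53.3 and 50.6 CPM in A549. These genes were named for the size of their change, so the lack of overlap between their groups is no separate result. ANKRD1, ARHGEF17 and ANLN, which were not called, had no overlap either. The share of all tested genes without overlap was not computed. The weaker calls of the list were lost in some settings: AJUBA by DESeq2 (adjusted p = 0.0654), AJUBA, CRIM1 and FJX1 without either A549 library (adjusted p of 0.0515 to 0.0989), and LATS2 without A549 replicate 2 (adjusted p = 0.055 by edgeR). RefSeq windows were at hand for 23 of the 30 genes, some with several windows, and 9 of their 30 windows held GGAATG (30.0%, against 11.9% of all windows). The 9 include CCN2 and ANKRD1, described above. The genes were listed as TEAD targets, so this share is no separate evidence.

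**Figure D5:**
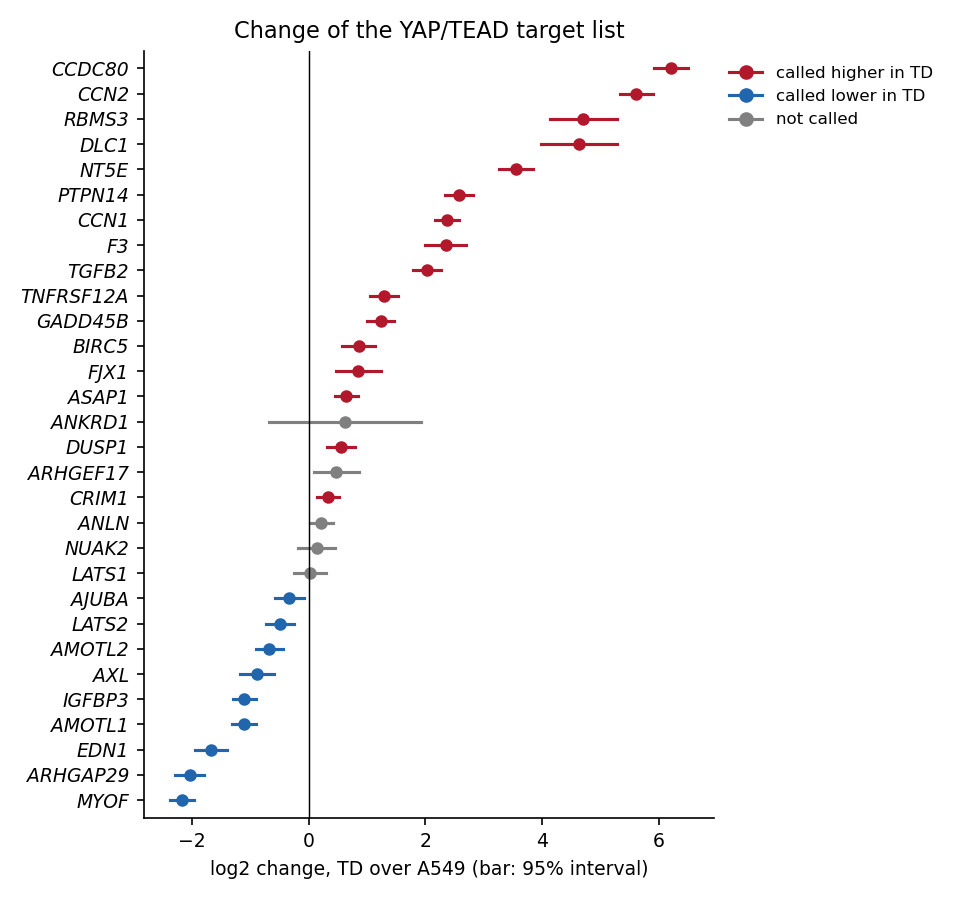
Log2 change of TD over A549 for the 30 genes of the YAP and TEAD target list, ordered by size; points are edgeR estimates, bars are 95% intervals and colours give the call. CCN2 is second from the top at 5.61, CCN1 is among the 16 that rose, and ANKRD1 at 0.62 has the widest bar.

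Targets of TGF-β and SMAD factors, a list that holds CCN2, were mostly higher in TD. Of 23 tested members of 24, 20 rose, 1 fell and 2 were not called, or 87.0% higher and 4.35% lower against 21.6% and 21.4% of all tested genes, with a median log2 change of 2.52, against -0.04 over all tested genes. IL11, an interleukin that fibroblasts are known to respond to, had 1168 and 1283 CPM in TD and 12.1 and 11.4 CPM in A549 (log2 change 6.70, SE 0.12, adjusted p = 3.08e-05 by edgeR). The collagen gene COL1A1 also had a larger log2 change than CCN2, at 6.20, with 260.4 and 296 CPM in TD and 3.74 and 3.84 CPM in A549. The member that fell was TGIF1, a SMAD corepressor, at 59.9 ± 3.26 CPM in TD and 82.3 ± 2.71 CPM in A549 (SD, n = 2).

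Serum response genes, a list that holds CCN1, CCN2 and ANKRD1, were mostly higher. Of 22 tested members of 24, 16 rose, 2 fell and 4 were not called. This was 72.7% higher and 9.09% lower, against 21.6% and 21.4% of all tested genes, and the median log2 change was 0.87, against -0.04. Beside CCN2, the largest rises were those of TAGLN, the actin-binding protein transgelin, at 149 and 152 CPM in TD and 6.54 and 5.97 CPM in A549, and of CNN1, calponin. CNN1 had 114 counts in TD and 3 in A549, a ratio of 31.4 (95% exact counting interval 10.5 to 154). The members that fell were FOS, an immediate-early transcription factor, at 0.172 and 0.443 CPM in TD and 20.2 and 20.6 CPM in A549, and ACTA2, smooth muscle actin, at 3.93 and 5.04 CPM in TD and 10.6 CPM in each A549 library. Of the other immediate-early genes in these lists, JUNB had a log2 change of 2.18 and DUSP1 of 0.55, both called higher, while EGR1 at 0.95 was not called (adjusted p = 0.0697 by edgeR). The calls of FLNA and CNN2 were lost without either A549 library (adjusted p of 0.0737 to 0.079 by edgeR), and those of VCL and FHL2 without A549 replicate 1 (adjusted p = 0.0504 and 0.0565 by edgeR).

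Receptors and partners through which CCN proteins are known to act changed in both directions. Of 17 tested members of 20, 6 rose, 3 fell and 8 were not called. The shares of 35.3% higher and 17.6% lower stand against 21.6% and 21.4% of all tested genes, and the median log2 change of 0.14 against -0.04. ITGB3, the β3 integrin chain, had 32.6 and 27.2 CPM in TD and 0.251 and 0.169 CPM in A549 (log2 change 7.13, SE 0.22, adjusted p = 5.68e-05 by edgeR). Its partner ITGAV, with which it forms a receptor for CCN1 and CCN2, had 951 and 954 CPM in TD and 153 and 163 CPM in A549. FN1, fibronectin, had 649 and 572 CPM in TD and 65.4 and 63.8 CPM in A549. In contrast ITGB5, the β5 chain that also pairs with ITGAV, had 45.0 and 52.0 CPM in TD and 248 and 245 CPM in A549 (log2 change -2.34, SE 0.10, adjusted p = 0.000123 by edgeR). FGFR2 had 0.620 and 0.615 CPM in TD and 3.74 and 3.91 CPM in A549. ITGA2B had 0.448 and 0.393 CPM in TD and 1.08 and 0.977 CPM in A549, a call that DESeq2 did not give (adjusted p = 0.253) and that was lost without A549 replicate 1 (adjusted p = 0.195) or 2 (adjusted p = 0.158 by edgeR). The call of ITGA6 ended when A549 replicate 1 was left out (adjusted p = 0.0634 by edgeR). The heparan sulfate proteoglycan gene SDC4 had log2 change 0.05 (95% interval -0.18 to 0.29), and LRP1, an endocytic receptor, had -0.14 (-0.38 to 0.10), and neither was called.

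Other matricellular genes also went both ways. Of 16 tested members of 25, 6 rose, 6 fell and 4 were not called, or 37.5% in each direction, against 21.6% higher and 21.4% lower over all tested genes. The median log2 change was -0.24, against -0.04 over all tested genes. The largest rise was that of SPOCK1, a secreted proteoglycan, at 193 and 189.7 CPM in TD and 0.0719 and 0.101 CPM in A549. SPARC, a collagen-binding glycoprotein, came next, with 618 counts in TD and 2 in A549, a ratio of 255 (95% exact counting interval 70.3 to 2111). That interval also covers counting error only, and the edgeR log2 change was 7.83 (95% interval 6.24 to 9.42). EFEMP1, a fibulin, followed at 47.7 and 50.6 CPM in TD and 1.29 and 1.25 CPM in A549. The largest falls were those of SMOC1 at 2.14 and 2.75 CPM in TD and 40.6 CPM in each A549 library, of SPOCK2 at 0.103 and 0.0984 CPM in TD and 1.19 and 0.708 CPM in A549, and of SPP1, osteopontin, at 136 and 137 CPM in TD and 612 and 627 CPM in A549. With A549 replicate 1 left out, 3 fell, and SPOCK2 (adjusted p = 0.1), FBLN5 (adjusted p = 0.0767) and FBLN1 (adjusted p = 0.107 by edgeR) were not called. Without A549 replicate 2, FBLN5 (adjusted p = 0.0603) and FBLN1 (adjusted p = 0.063 by edgeR) were not called.

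The genes whose levels over the 4 libraries ran most like those of CCN1 were found by the distance between log2 CPM profiles centred on each gene's mean, with 0.1 CPM added. They were GALNT10, AMIGO2 and CNTNAP2, at distances of 0.03, 0.07 and 0.07, with log2 changes of 2.37, 2.44 and 2.31. For CCN2, TCF4 and FRMD6 were among the 3 nearest, at 0.15 and 0.20, with log2 changes of 5.97 and 5.78. For ANKRD1 they were RPS6KA5, CCDC181 and FAM72A, at 0.26, 0.31 and 0.33, none of them called, and FAM72A has near-identical copies among which reads may be split. With 4 libraries in 2 groups, likeness of this kind mostly reads the size of the change.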

How the data were processed

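RNA from 2 TD and 2 A549 libraries was read from both ends on an Illumina NextSeq instrument after a strand-specific, poly(A)-based library kit, per the labels' protocols. For each library the authors deposited raw read counts per gene. The submitters' processing notes name FastQC 0.11.8, STAR 2.7.1a, HTSeq 0.11.2 and the build GRCh37 (hg19). No source used here gives the annotation release, the strand setting or a read filter. Reads that HTSeq gave to no gene, because they lay outside genes (6.12% to 7.79% of reads), in several genes (2.34% to 2.56%) or at several sites (8.08% to 9.22%), were left out of library sizes.

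Symbols were found for 52338 of 57820 identifiers. GENCODE 29, on GRCh38, gave only gene types, exon lengths and overlaps. All genes were fitted together with edgeR 4.0.16 in R 4.3.3 (quasi-likelihood test, TMM scaling, default filter with a minimum count of 10, Benjamini-Hochberg adjustment, calls at an adjusted p below 0.05). The procedure was also run on counts simulated with the same spread for every gene, smaller than the 20.1% that edgeR fitted here. That run checks the code and does not give the error rates in these libraries. Intervals are 95% intervals of the fitted log2 change. Replicate numbers were not taken as pairs. Alternatives covered scaling, filters, DESeq2 1.42.0, limma-voom (limma 3.58.1), the replicate number as a block, robust dispersion, pseudogenes left out, protein-coding genes only, and each library left out. With 1 library left out, the lone library of its group is assumed to vary like the other pair. Leaving out a library together with pseudogenes was added after seeing the data.

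The members, lists and tests were chosen with earlier results of these data known. Named were all members, their relatives and regulators, up to 3 called list genes with the largest changes of at least 2-fold in each direction, list genes whose call was lost in an alternative, and the 3 nearest profiles of CCN1, CCN2 and ANKRD1. Others in the text were chosen after their values were seen, and a few genes under this rule are not reported here.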

Additional observations from a re-analysis of the deposited data

How the results depend on the processing

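CCN1, CCN2 and CCN5 kept their direction and their call in every alternative that tested them. With all 4 libraries, the log2 change ranged from 2.30 to 2.41 for CCN1, from 5.53 to 5.65 for CCN2 and from -3.37 to -3.24 for CCN5, and with 1 library left out, alone or together with pseudogenes, from 2.33 to 2.42, from 5.52 to 5.69 and from -3.51 to -3.11. Over these same 8 settings CCN3 ranged from -0.15 to 0.49 and was called in none. ANKRD1 ranged from 0.56 to 0.72 with all libraries and from 0.08 to 1.39 over those 8 (0.09 to 1.39 with a library alone left out), and it was called once, at 1.37, without A549 replicate 2 and without pseudogenes, when 3 members rose in place of 2. The filter of 5 CPM in 2 libraries left 0 members lower and 1 CCN receptor lower, because CCN5, FGFR2 and ITGA2B were then not tested. Per kilobase in place of raw counts, the ratio of CCN1 to CCN2 in TD was 0.486 and 0.468, which follows from the exon lengths. With a library alone left out, 3 to 7 other matricellular genes fell (7 without TD replicate 1, and 8 when pseudogenes were left out too), and over all tested genes 2114 to 5329 were higher and 2236 to 6140 lower. The common coefficient of variation between replicates, as edgeR fits it, was 20.1% in the full fit. It was 34.1% and 34.0% without A549 replicates 1 and 2, and 7.08% without either TD replicate. With pseudogenes left out, it was 8.79% and 8.64% without A549 replicates 1 and 2, and 7.90% with all libraries. Calls of listed genes and regulators that were lost without an A549 library were kept when pseudogenes were left out too. That setting was added after seeing the data.

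With the replicate number as a block, the log2 changes were 2.37 for CCN1, 5.61 for CCN2, 0.17 for CCN3, -3.27 for CCN5 and 0.72 for ANKRD1, with no call of a member changed, while CNN1, AJUBA, ITGA2B and FBLN1 lost theirs (adjusted p of 0.0661 to 0.0991 by edgeR), and over all genes 2964 were higher and 2847 lower. The numbers were not taken as pairs, because the labels do not say that equal numbers share a culture or a day. The correlation of same-numbered deviations over genes was -0.0965, which with 2 libraries a group cannot decide this. Depth limits CCN3, CCN4, CCN6 and ANKRD1, each with under 40 counts in every library.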
